A study of Mus musculus with 2 samples.

Results

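Microglia genes were examined in the proliferative zones that line the ventricle (VZ–SVZ) in the mouse cortex at E13.5. The set holds 10 genes, all of which were found among the 21896 gene symbols of the files: Csf1r, Cx3cr1, P2ry12, Trem2, Tyrobp, Fcer1g, C1qa, C1qb, C1qc and Aif1. They were taken by name as widely used markers of microglia, and the set was chosen by someone who already knew their FPKM values in these libraries, so that the values below are a description and carry no test. One library came from Rcor2fl/fl embryos, in which the LoxP sites of Rcor2 are present and the gene is intact, and 1 library from Rcor2cko embryos, in which a Nestin-driven Cre recombinase removes the exons between those sites. Both are labelled as strain C57/BL6 and came from crosses of Rcor2fl/+NesCre mice, and the number of embryos behind each library is not given in the sources used here. With 1 library per genotype, each difference is one between 2 libraries and has no replicate check.

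Microglia are the resident macrophages of the brain. They descend from progenitors of the yolk sac, outside the neural lineage in which Nestin-driven Cre acts, and reach the cortex before most of its neurons are made. The set follows their biology from the surface inwards. Csf1r receives the survival factors Csf1 and Il34, Cx3cr1 binds the neuronal chemokine Cx3cl1, and P2ry12 senses extracellular nucleotides. Trem2 binds lipids and signals through the adaptor Tyrobp, also known as DAP12. Fcer1g is the related adaptor of Fc receptors. C1qa, C1qb and C1qc encode the 3 chains of C1q, the recognition part of the first complement component, and Aif1 encodes the calcium-binding protein known as Iba1.

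The depth of the libraries could be read from the FPKM values (fragments scaled to transcript length and to the fragments mapped in the library), because low values fall on steps of whole fragments. The scaling totals were 18841070 fragments in Rcor2fl/fl and 25481460 in Rcor2cko. Rcor2 itself was at 90.6 FPKM in Rcor2fl/fl and 55.7 FPKM in Rcor2cko. These values cover the whole transcript, with the exons outside the LoxP sites, and do not measure the removal. For the exons between the sites, the study reports no RNA in Rcor2cko at E13.5. The embryos also differed in sex-linked RNA, with Xist at 177 FPKM and 0.109 FPKM and the Y-linked Ddx3y at 0.0239 FPKM and 8.10 FPKM, and none of the 10 genes lies on a sex chromosome. In whole tissue, more cells of a type and more RNA per cell cannot be told apart.

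All 10 genes had at least 1 FPKM in both libraries, which places them near the middle of the range of all listed genes. Their levels ran from 1.07 to 4.59 FPKM in Rcor2fl/fl, at percentiles 47.9 to 60.0 of all genes. In the Rcor2cko library they ran from 1.33 to 6.30 FPKM, at percentiles 48.8 to 64.7. Of the 10 genes 9 were higher in Rcor2cko and Fcer1g was lower. Summed over the set, the level was 23.7 FPKM in Rcor2fl/fl and 34.4 FPKM in Rcor2cko, a ratio of 1.45. In fragments, the set took 32.2 of every 1000000 in Rcor2fl/fl (606 fragments, 95% exact Clopper-Pearson interval 29.7 to 34.8) and 47.7 of every 1000000 in Rcor2cko (1215 fragments, 45.0 to 50.4). The intervals do not overlap. They cover counting error only, as do all intervals computed here from fragments, and not the spread between embryos or dissections.

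**Figure D1:**
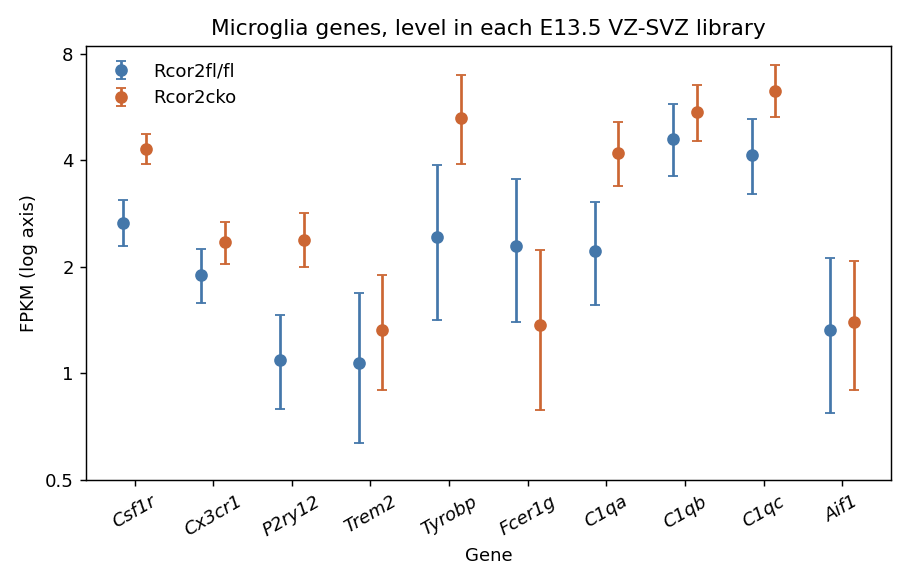
Level of the 10 microglia genes in FPKM on a log axis, in Rcor2fl/fl (blue) and the Rcor2cko library (orange), with 95% exact Poisson intervals of the fragments as bars. The bars of Csf1r, P2ry12, Tyrobp, C1qa and C1qc are apart between the libraries, and those of the other 5 genes overlap.

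Csf1r, the receptor on which microglia depend for survival, was at 2.67 FPKM in Rcor2fl/fl and 4.32 FPKM in Rcor2cko. In each pair of values given without names, the Rcor2fl/fl value comes first. These levels rest on 185 and 404 fragments, the largest numbers in the set. Ratios are of Rcor2cko over Rcor2fl/fl on the log2 scale after 0.1 was added to each FPKM, with a 95% exact interval of the ratio without the 0.1. For Csf1r the log2 ratio was 0.67 (interval 0.44 to 0.95), or 1.60-fold. In mm9 the gene spans 61265226 to 61291803 on the plus strand of chromosome 18, and its longest annotated transcript has 22 exons. Exons of Hmgxb3 on the opposite strand share 871 bases with its annotated exons, none of them within the locus that the files use for Csf1r.

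P2ry12, the nucleotide receptor that distinguishes microglia from most other macrophages, was at 1.09 FPKM in Rcor2fl/fl and 2.39 FPKM in Rcor2cko, from 44 and 130 fragments. Its log2 ratio was 1.06 (interval 0.63 to 1.66). P2ry12 lies on chromosome 3 from 59020193 to 59066753 on the minus strand, inside Med12l, which is on the plus strand. The exons of the 2 genes share no base in the annotation, and Med12l was at 2.04 and 1.98 FPKM. The files give their own 95% FPKM intervals, which for P2ry12 ran from 0.390 to 1.79 FPKM in Rcor2fl/fl and from 1.35 to 3.43 FPKM in Rcor2cko and overlap. By these intervals the libraries also overlap for C1qa, C1qc and Tyrobp, and of the genes past 1.5-fold Csf1r was the 1 without an overlap. Cx3cr1, the fractalkine receptor, was at 1.89 and 2.35 FPKM from 126 and 211 fragments, with a log2 ratio of 0.30. Its interval, from -0.01 to 0.64, includes 0.

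The intervals of the receptor Trem2, of both adaptors and of Aif1 were the widest of the set, each resting on at most 20 fragments in Rcor2fl/fl. Trem2 was at 1.07 FPKM in Rcor2fl/fl and 1.33 FPKM in Rcor2cko (18 and 30 fragments), a log2 ratio of 0.29 (interval -0.58 to 1.24). No difference in Trem2 was detectable at this depth. Its partner Tyrobp was at 2.43 FPKM and 5.27 FPKM (17 and 49 fragments), the largest ratio of the set, with a log2 ratio of 1.09 (interval 0.30 to 2.01). Fcer1g was at 2.29 FPKM in Rcor2fl/fl and 1.37 FPKM in Rcor2cko (20 and 16 fragments), a log2 ratio of -0.70 (interval -1.78 to 0.29). Fcer1g is the gene of the set with the lower level in Rcor2cko, and its interval includes 0. The level of Tyrobp was 1.06 times that of Fcer1g in Rcor2fl/fl and 3.83 times in Rcor2cko. The intervals of their log2 ratios lie just apart, and this pair was singled out after the values were seen. Tyrobp, on chromosome 7 from 31198807 to 31202596, and Fcer1g, on chromosome 1 from 173159703 to 173164496, have the shortest transcripts of the set, of 566 and 658 nt.

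C1q made up 46.2% of the summed FPKM of the set in Rcor2fl/fl and 46.4% in Rcor2cko. C1qa was at 2.21 and 4.19 FPKM from 37 and 94 fragments, with a log2 ratio of 0.89 (interval 0.36 to 1.51). C1qc was at 4.14 and 6.30 FPKM from 67 and 137 fragments, with a log2 ratio of 0.60 (interval 0.18 to 1.05). C1qb was at 4.59 and 5.48 FPKM from 75 and 120 fragments, with a log2 ratio of 0.25, and its interval from -0.17 to 0.69 includes 0. All 3 intervals overlap each other, so that the chains were not distinguishable in their ratio at this depth. Summed over the chains, the log2 ratio was 0.55 (interval 0.27 to 0.80), against 0.53 for the sum of the other 7 genes. Within a library, C1qa was the lowest of the chains, and C1qb was 2.08 times C1qa in Rcor2fl/fl and 1.31 times C1qa in Rcor2cko.

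The C1q genes stand side by side on the minus strand of chromosome 4, over 18675 bases from 136436044 to 136454718 of mm9. C1qb and C1qc are 3616 bases apart, and C1qc and C1qa 2851 bases apart. Promoters were planned to be shown only around matches of the motif given below, and of the genes searched C1qc alone had a match. The promoters of C1qb and C1qc are shown, that of C1qb as the neighbour without a match. Each is the 250 bases before the RefSeq gene start, from RefSeq on GRCm38.p6, matched here letter for letter to one place on chromosome 4 of mm9, on the minus strand: C1qb at chr4:136442116-136442365 and C1qc at chr4:136448830-136449079. Capitals mark GAGGAAGT, a purine-rich form of the site bound by PU.1 (the myeloid factor encoded by Spi1), searched on both strands, which appears in C1qc as its reverse complement starting at position -195 from that start. The RefSeq start of C1qc, 136448829, differs from the GENCODE start at 136448980 used for the span above, so that 151 of its 250 bases lie inside the GENCODE gene.
C1qb: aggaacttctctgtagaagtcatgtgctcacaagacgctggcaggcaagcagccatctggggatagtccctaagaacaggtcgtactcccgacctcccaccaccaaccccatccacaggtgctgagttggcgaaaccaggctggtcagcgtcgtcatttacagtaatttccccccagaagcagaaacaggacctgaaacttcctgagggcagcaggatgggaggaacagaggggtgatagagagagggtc
C1qc: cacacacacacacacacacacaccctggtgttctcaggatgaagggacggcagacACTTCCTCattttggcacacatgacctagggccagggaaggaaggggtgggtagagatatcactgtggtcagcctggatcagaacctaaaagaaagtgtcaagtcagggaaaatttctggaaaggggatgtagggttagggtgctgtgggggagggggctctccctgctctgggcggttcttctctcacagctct
Of the 7 genes of the set with an entry in the promoter table, C1qc was the 1 with this motif in the 250 bases. Over all 32851 promoters the share with it was 2.44%. A match of letters is a description of the sequence and not of binding. The other 3 genes are Csf1r, C1qa and Tyrobp.

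Aif1, whose product Iba1 is the usual stain for microglia, was at 1.32 FPKM in Rcor2fl/fl and 1.40 FPKM in Rcor2cko, from 17 and 24 fragments. Its log2 ratio was 0.07, with an interval from -0.88 to 1.06. Aif1 lies on chromosome 17 from 35307936 to 35313013, as does Trem2 from 48485726 to 48493472.

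**Figure D2:**
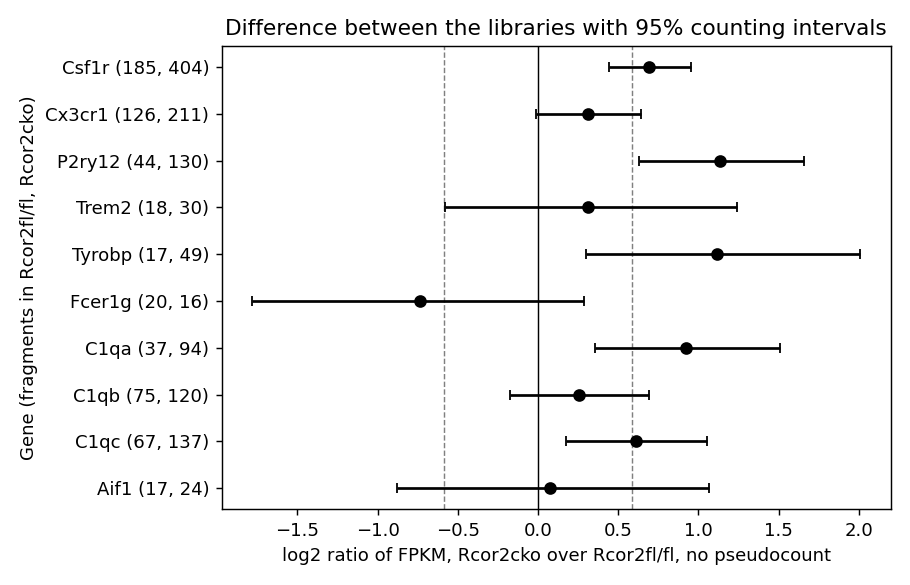
Log2 ratio of FPKM without a pseudocount, Rcor2cko over Rcor2fl/fl, for each microglia gene (points) with its 95% exact interval (bars) and, after each name, the fragments in the 2 libraries. The solid line marks no difference and the dashed lines 1.5-fold, and the bars of 5 genes lie wholly to the right of 0.

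The order of the levels within a library was resolved in few places. In the Rcor2fl/fl library it ran from C1qb and C1qc at the top through Csf1r, Tyrobp, Fcer1g, C1qa, Cx3cr1 and Aif1 to P2ry12 and Trem2. Neighbours in this order overlapped in their counting intervals except C1qc and Csf1r. In the Rcor2cko library C1qc and C1qb were again at the top, followed by Tyrobp, Csf1r, C1qa, P2ry12, Cx3cr1, Aif1, Fcer1g and Trem2. There the intervals of neighbours were apart only between C1qa and P2ry12. Trem2 was the lowest gene in both libraries. The smallest level that 3 fragments give was between 0.0433 and 0.428 FPKM for these transcripts in Rcor2fl/fl and between 0.0320 and 0.322 FPKM in Rcor2cko.

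Against all genes, the set was read on a 1.5-fold difference of (FPKM + 0.1), the fold change of the study's own criterion. Csf1r, P2ry12, Tyrobp, C1qa and C1qc, 5 of the 10 genes, were more than 1.5-fold higher in Rcor2cko, against 3.79% of the 11777 genes that reached 1 FPKM in either library. Fcer1g was the 1 gene more than 1.5-fold lower, beside 1.76% of those genes. The set was chosen with these ratios known, so that its counts and the shares of all genes stand side by side without a test. C1qc was the closest to the limit, at 1.51-fold. Genes of low level vary more between libraries, and among the 3575 genes with a mean of 1 to 6 FPKM, a range set after the values were seen, 7.78% were higher and 3.19% lower by more than 1.5-fold. The interval of the ratio lay above 0 for 5 genes of the set and below 0 for none. Over the 9113 genes tested whose fragments could be recovered, it lay above 0 for 13.7% and below 0 for 22.6%, so that intervals of counting error alone are often passed between these libraries. The median log2 ratio of the set was 0.45, beside -0.03 over all genes tested and -0.00 over those with a mean of 1 to 6 FPKM, of which 11.6% were at or above 0.45. With 2 libraries the pattern of a gene is a single ratio, and 409 of the tested genes, 3.47%, lay within 0.1 of the median of the set on the log2 scale.

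**Figure D3:**
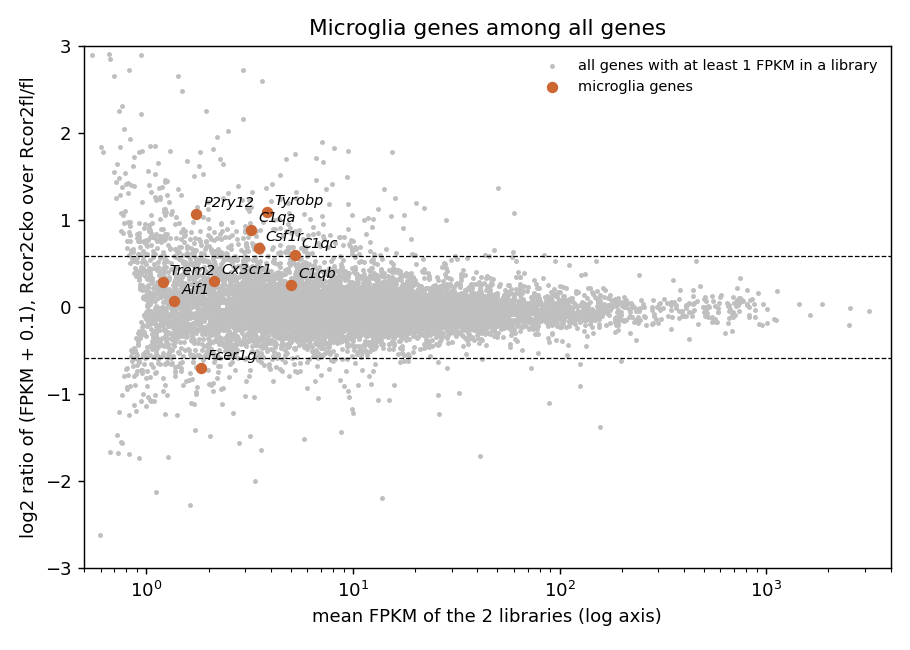
Log2 ratio, Rcor2cko over Rcor2fl/fl, of (FPKM + 0.1) against mean FPKM on a log axis, for all tested genes (grey) and the microglia genes (orange, named). The dashed lines mark 1.5-fold, 31 genes beyond 3 on the log2 scale are not drawn, and 5 microglia genes lie above the upper line and Fcer1g below the lower one.

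The next list holds 14 genes of signals that bind microglial receptors or recruit microglia, and of related proteins. Which cells made them was not tested. At least 1 FPKM in a library was reached by 11 of the 14. The 1.5-fold limit was passed upwards in Rcor2cko by 3 of the 11 and downwards by 1. Over all genes tested the shares were 3.79% upwards and 1.76% downwards. The median log2 ratio of the 11 was 0.22. Csf1, a ligand of Csf1r, was at 2.32 and 3.81 FPKM, a log2 ratio of 0.69. Cxcl12, a chemokine that draws microglia into the proliferative zones, was at 12.6 and 19.5 FPKM, a log2 ratio of 0.63. Entpd1, the ectoenzyme CD39 that breaks down the nucleotides that P2ry12 senses and is itself found on microglia and vessels, was at 1.07 and 1.97 FPKM, a log2 ratio of 0.82 (interval 0.50 to 1.27). Tgfb2 was lower, at 3.62 and 2.37 FPKM, a log2 ratio of -0.59 (interval -0.85 to -0.37). Other known ligands, named after their values were seen, were not past 1.5-fold: Cx3cl1 was at 1.84 and 2.15 FPKM, and Il34 was at 0.139 and 0.129 FPKM. By the mean of both libraries, the genes of the highest level in this list were Mif (308 and 280 FPKM), Panx1 (27.0 and 26.0 FPKM) and Apoe (13.8 and 18.6 FPKM).

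Of 14 transcription factors of myeloid and microglial development, 6 had at least 1 FPKM in a library, with a median log2 ratio of 0.02. Maf was the 1 factor past 1.5-fold, beside 3.79% of all genes tested that were higher. It was at 3.12 and 5.03 FPKM, a log2 ratio of 0.67 (interval 0.44 to 0.93). The highest were Sall1 (21.7 and 19.5 FPKM), Mef2c (15.4 and 17.8 FPKM) and Mef2a (9.20 and 11.0 FPKM), which neural cells of the cortex also express, as they do Maf. Spi1, listed under its older symbol Sfpi1 and named here after its values were seen, was at 0.559 and 0.555 FPKM from 12 and 16 fragments, with an interval from -1.18 to 1.1998.

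A further 57 genes of microglia, macrophages and leukocytes were found, of which 22 had at least 1 FPKM in a library. Of these 22 genes 9 were more than 1.5-fold higher in Rcor2cko and none was more than 1.5-fold lower, beside 3.79% and 1.76% of all genes tested. Their median log2 ratio of 0.42 includes genes that passed the filter through Rcor2cko alone, all of them higher there. By list, the median was 0.22 over the 7 other microglia genes tested and 0.42 over the 15 pan-leukocyte and macrophage genes tested. Gpr34, Lyz2 and Alox5ap among the 9 reached 1 FPKM in Rcor2cko alone, as did Cd52, Plek and Lyn outside the 9. Of the 16 that reached 1 FPKM in both, 11 were higher, 6 of them by more than 1.5-fold. Ctss, the lysosomal protease cathepsin S, was at 3.11 and 6.70 FPKM, a log2 ratio of 1.08 (interval 0.70 to 1.53). Mpeg1, a pore-forming protein of macrophages, was at 1.59 and 2.93 FPKM, and Fcrls, an Fc receptor-like gene of mouse microglia, at 2.51 and 4.17 FPKM. Their log2 ratios were 0.84 and 0.71. Ly86 was at 1.45 and 2.61 FPKM and Fcgr3, an Fc receptor that signals through Fcer1g, at 1.24 and 2.04 FPKM, with log2 ratios of 0.80 and 0.68. Lyz2 was at 0.738 and 1.83 FPKM, Gpr34 (on the X chromosome) at 0.685 and 1.43 FPKM, and Alox5ap at 0.724 and 1.38 FPKM. The genes of the highest mean level were not past 1.5-fold: Tgfbr1 (24.2 and 25.5 FPKM), Hexa (9.40 and 11.0 FPKM), Lgmn (18.6 and 17.99 FPKM) and Coro1a (17.3 and 16.0 FPKM), which other cortical cells also express. The remaining 35 genes were under 1 FPKM in both libraries, where 29 were higher and 6 lower in Rcor2cko. Of all 4686 genes under 1 FPKM in both libraries with unequal values, 58.1% were higher and 41.9% lower.

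Macrophages of the meninges, vessels and choroid plexus carry other markers, and most of these were under 1 FPKM in both libraries. A level under 1 FPKM does not set them apart, since 35 of the 57 further genes above were under it too. Of 14 such genes 2 reached 1 FPKM in a library, Stab1 (1.04 and 1.14 FPKM) and Dab2 (1.21 and 1.29 FPKM), both also expressed outside macrophages. The sum of the 14 was 3.28 FPKM in Rcor2fl/fl and 4.09 FPKM in Rcor2cko, and 5 and 2 of them were listed at 0. Mrc1 and Cd163 were named after their values were seen. Mrc1 was at 0.280 and 0.345 FPKM, from 27 and 45 fragments, and Cd163 was listed at 0 in both libraries. Pf4 was at 0.269 and 0.710 FPKM, from 2 and 7 fragments. Markers of neutrophils and monocytes summed to 1.88 and 2.80 FPKM over 12 genes, of which 8 and 4 were listed at 0. Mmp9, named after its values were seen, made up 1.51 and 2.23 FPKM of these sums.

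Of 24 other genes of the complement system and the C1q-like family, 7 had at least 1 FPKM in a library, all with a higher value in Rcor2cko and a median log2 ratio of 0.15. Among those under 1 FPKM in both libraries, C3, C3ar1, C5ar1, Cd55, Cd59a and C1ql1 were lower in Rcor2cko. The others under it were higher or listed at 0 in both. C1ql3, a C1q-like gene of neurons, was at 0.697 and 1.38 FPKM and Cd46 at 0.781 and 1.24 FPKM. Both were past 1.5-fold, beside 3.79% of all genes tested that were higher, and both were above 1 FPKM in Rcor2cko alone. Masp1 was at 23.7 and 25.8 FPKM, Cr1l at 9.11 and 9.59 FPKM, and the C1 inhibitor Serping1 at 5.84 and 7.83 FPKM. C1ra and C1s, named after their values were seen, encode proteases that join C1q in the first complement component. Both were listed at 0 in Rcor2fl/fl, and in Rcor2cko C1ra was at 0.0153 FPKM and C1s at 0.0145 FPKM.

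**Figure D4:**
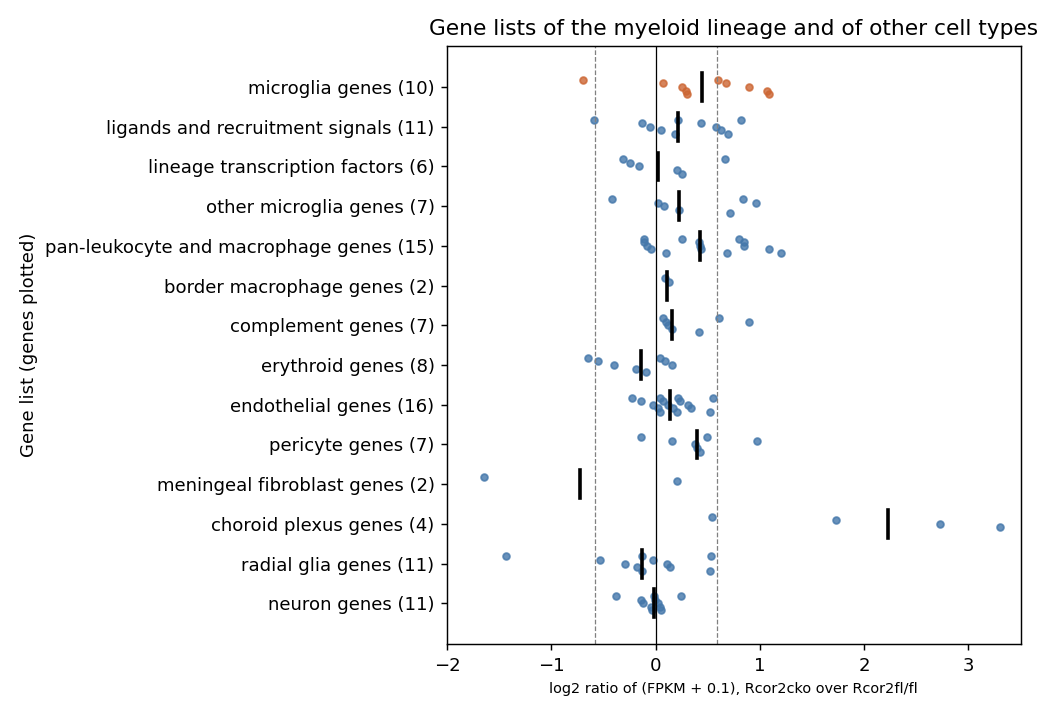
Log2 ratio, Rcor2cko over Rcor2fl/fl, of (FPKM + 0.1) of each gene with at least 1 FPKM in a library, for the lists with at least 2 such genes, with the number of genes plotted in parentheses and the median as a black bar. Dashed lines mark 1.5-fold. The choroid plexus list lies farthest to the right, with Ttr (9.18) drawn at the edge of the axis. The medians of the microglia and the pan-leukocyte and macrophage lists are 0.45 and 0.42, and that of the other microglia genes is 0.22. All genes of the microglia set reached 1 FPKM in both libraries. The other microglia genes and the pan-leukocyte and macrophage list include genes that reached it in Rcor2cko alone.

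Other cells of the dissected tissue differed less or more than the microglia genes. The 17 endothelial genes summed to 80.5 FPKM in Rcor2fl/fl and 85.1 FPKM in Rcor2cko, with no gene past 1.5-fold among the 16 tested and a median log2 ratio of 0.14. The 11 pericyte genes summed to 27.0 and 32.3 FPKM, with a median of 0.39 over the 7 tested. Of these 1 was past 1.5-fold, beside 3.79% of all genes tested that were higher. It was Higd1b, named after its values were seen, at 0.590 and 1.25 FPKM from 6 and 17 fragments. Higd1b reached 1 FPKM in Rcor2cko alone, and its interval from -0.33 to 2.72 includes 0. The 13 erythroid genes summed to 544 and 463 FPKM, with Hbb-b1 lower at 153 and 97.5 FPKM. The 8 choroid plexus genes summed to 2.52 and 65.1 FPKM, and 57.8 FPKM of the latter is Ttr, which was listed at 0 in Rcor2fl/fl and rests on 1503 fragments in Rcor2cko. The 12 genes of meningeal fibroblasts summed to 13.2 and 10.8 FPKM, and without Zic1, at 5.52 and 1.69 FPKM, the other 11 summed to 7.66 and 9.13 FPKM. Zic1 was named after its values were seen. Neuron genes summed to 1896 and 1829 FPKM, with a median of -0.02 over 11 genes. Radial glia genes summed to 915 and 1056 FPKM, with a median of -0.13 over 11, of which 4 were higher and 7 lower. Hopx was lower at 12.8 and 4.67 FPKM, and Fabp7, named after its values were seen, was higher at 372 and 539 FPKM. The 15 genes of lymphocytes and mast cells summed to 20.5 and 14.6 FPKM, of which Kit, also a gene of neural cells and named after its values were seen, made up 20.1 and 14.3 FPKM. The part of these cell types, of the sex of the embryos and of the dissection in the values of the microglia genes was not tested.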

How the data were processed

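RNA of 2 libraries from E13.5 VZ–SVZ was analysed. Per the labels, RNA was isolated with RNeasy columns and libraries were made with a stranded mRNA kit. The methods give mapping to mm9 by a later version of TopHat than the 1.3.3 that the submitters' processing notes list, with Cufflinks 1.2.0, and a comparison by Cuffdiff. Whether strand was used in mapping is not given in the sources used here. The authors deposited FPKM values with 95% intervals, 1 row per RefSeq transcript for Rcor2fl/fl (27641 rows) and 1 row per gene for Rcor2cko (21896 rows). Transcript lengths, another column of the deposited Rcor2fl/fl values, were used too.

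Rows were summed per gene. Each of the 10 genes has 1 transcript and status OK. Where the 1 transcript had 500 nt or more, FPKM times the length less a fitted offset (194 and 201 nt) was divided by the fitted step. Of values up to 100 fragments, 99.3% and 99.5% came out within 0.1 of a whole number. Ratios use (FPKM + 0.1), and genes needed at least 1 FPKM in at least 1 library. The steps were tested on simulated data. Of 249 list entries, 6 were matched by an older symbol and 4 were not found.

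The genes and lists were chosen with earlier results of these data known. Named genes are the 10 of the set and, in the 6 lists of ligands, factors, myeloid and complement genes, those past 1.5-fold and the 3 highest. In lists of other cells, those past 1.5-fold with a mean of at least 5 FPKM are named. The values of 1 gene that this rule names are not reported here, although counts and medians include it. Python 3.11.15, numpy 2.4.6, pandas 2.3.3, scipy 1.17.1 and matplotlib 3.10.9 were used, with GENCODE vM1 positions on NCBIM37 (mm9), counted from 1. Alternatives changed the pseudocount, scaling, filter, joining of rows, fold change and members.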

Additional observations from a re-analysis of the deposited data

How the results depend on the processing

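No paired analysis was possible because each genotype has 1 library. Of 12 alternatives, 10 give ratios, 1 of them for the 3 genes that reach 5 FPKM alone. In these the log2 ratio of each microglia gene left kept its sign and stayed within its counting interval, and that of the summed FPKM ran from 0.54 to 0.61, the latter over those 3 genes. Without C1qc it was 0.52. The 3 scalings raised the Rcor2cko library by at most 0.04 on the log2 scale.

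The number of microglia genes past 1.5-fold moved with the call rule. Higher and lower, it was 3 and 0 with a pseudocount of 1, 2 and 0 where 1 library had to reach 5 FPKM (3 genes left), 2 and 0 above 2-fold, and 1 and 0 when the 95% FPKM intervals of the files also had not to overlap, which left Csf1r. The other 8 alternatives gave 5 and 1. Without Csf1r, C1qa, C1qc, Tyrobp or P2ry12 the median log2 ratio fell from 0.45 to 0.30, and without 1 of the other 5 genes it was 0.60. The median lies between the 5 genes past 1.5-fold and the other 5.

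Over all genes, 446 higher and 207 lower became 243 and 100 with a pseudocount of 1, 1287 and 672 unfiltered, 262 and 128 where both libraries had to reach 1 FPKM, 139 and 69 where 1 library had to reach 5 FPKM, 162 and 62 above 2-fold, and 220 and 81 with non-overlapping intervals. The highest row per gene gave 1214 higher and 192 lower. It lowers the Rcor2fl/fl library alone, which has 1 row per transcript, while Rcor2cko has 1 row per gene. The 1214 therefore compares unlike values and is not a count of differences between the libraries. For the counts of the other settings the cause was not tested. The fold limits do not act on ratios and gave none.

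Depth limits Trem2, Tyrobp, Fcer1g and Aif1 most, with at most 20 fragments in the Rcor2fl/fl library.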
